A study of Mus musculus with 203 samples.

Results

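Lyz1 and Lyz2 are the paralogous mouse genes for lysozyme, and they were described here in RAW264.7 cells (RAW cells), a mouse macrophage line. Both were selected on their gene symbols, with earlier results of these data known, and they are 2 of the 25094 genes in the RNA-seq table of RAW cells. Lyz1 and Lyz2 are each also listed in the second RNA-seq table, of bone marrow-derived macrophages, which holds the comparisons of the authors and no value per library and was not used here. The study asked how corepressor and demethylase subunits act on the response of macrophages to interleukin 4 (IL4), a cytokine of alternative macrophage activation.

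The RAW libraries form 4 groups of 4 libraries. All cells carried a lentiviral short hairpin RNA, selected with puromycin as stable lines. The control lines carried shGFP, a hairpin against green fluorescent protein, which mouse cells lack, and were either left without IL4 (shGFP control) or given 20 ng/ml of IL4 for 6 h (shGFP IL4). The others carried shKDM1A, a hairpin against Kdm1a (LSD1), a histone demethylase that removes methyl groups from lysines 4 and 9 of histone H3, again without IL4 (shKDM1A control) or with 20 ng/ml for 6 h (shKDM1A IL4). The methods give 1 hairpin clone for Kdm1a, so a difference between shKDM1A and shGFP cells cannot be told apart from a difference between the selected lines. The labels do not say whether the 4 libraries of a group came from separate cultures. The paper states for its experiments in general that biological replicates were used, without describing these libraries. P-values thus measure the spread between these libraries only, which may be technical.

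Lysozyme is a secreted enzyme that cuts the bond between the sugars of peptidoglycan, the polymer of the bacterial cell wall. Lyz2, often called the M form, is an abundant transcript of macrophages and neutrophils and its promoter drives the LysM-Cre strain. Lyz1, the P form, is best known from the Paneth cells of the small intestine, where it is a granule protein.

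Lyz2 lies on chromosome 10 of mm9, from 116714597 to 116719328, and Lyz1 from 116724851 to 116729924, both on the minus strand. The start of Lyz1 lies 10.6 kb from that of Lyz2, and 5522 bases separate the end of one gene from the start of the other. Each gene has 4 exons in GENCODE vM1, with coding parts of 136, 165, 79 and 64 bases in both. Over the 444 coding bases the genes differed at 22 positions, so that 95.0% were identical. Exon 1 held 14 of the differences, exon 2 held 6, exon 3 none and exon 4 held 2. Exon 2 is shown because it shows how alike the transcripts are that reads had to be split between. In the lines below, read 5′ to 3′ on the minus strand of mm9, capitals mark the bases that differ between the paralogs. The Lyz1 exon lies at chr10:116728085-116728249 and the Lyz2 exon at chr10:116717697-116717861.
Lyz1 exon 2: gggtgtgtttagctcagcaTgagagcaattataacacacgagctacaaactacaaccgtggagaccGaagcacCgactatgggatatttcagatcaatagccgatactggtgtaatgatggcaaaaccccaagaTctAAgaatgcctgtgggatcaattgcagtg
Lyz2 exon 2: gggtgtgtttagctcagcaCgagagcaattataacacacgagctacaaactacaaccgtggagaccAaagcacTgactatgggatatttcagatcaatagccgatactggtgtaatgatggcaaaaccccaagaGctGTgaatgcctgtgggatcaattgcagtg

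The longest run of bases shared by the GENCODE transcripts, of 1264 bases for Lyz1 and 1313 for Lyz2, was 118 bases. Of all windows of 50 bases in the Lyz1 transcript, 16.0% also stood in the Lyz2 transcript. The share was 6.22% for windows of 75 bases, 2.06% for 100 bases and 0% for 150 bases. The read length and the treatment of reads that match both genes are not given in the sources used here, so the split of such reads between the paralogs is uncertain and its part in the values below was not tested.

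The promoters are shown because the genes lie side by side and both were called in every comparison of the groups on the deposited values. The stretch from 250 to 51 bases before the RefSeq start of each gene was read from mm9, at chr10:116729975-116730174 for Lyz1 and chr10:116719379-116719578 for Lyz2, both on the minus strand. Capitals mark bases that differ from the paralog or stand opposite a gap in a global alignment.
Lyz1 promoter: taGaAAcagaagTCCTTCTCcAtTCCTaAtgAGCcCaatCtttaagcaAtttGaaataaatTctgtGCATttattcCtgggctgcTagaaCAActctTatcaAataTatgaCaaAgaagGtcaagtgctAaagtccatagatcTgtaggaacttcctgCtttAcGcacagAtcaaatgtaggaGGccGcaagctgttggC
Lyz2 promoter: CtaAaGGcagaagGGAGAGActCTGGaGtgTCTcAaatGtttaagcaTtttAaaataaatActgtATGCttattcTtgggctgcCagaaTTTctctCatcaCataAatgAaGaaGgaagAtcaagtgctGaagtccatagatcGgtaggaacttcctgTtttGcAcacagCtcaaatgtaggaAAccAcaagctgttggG

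In that alignment 75.8% of 198 aligned bases were identical, and 2 bases of each gene stood opposite a gap. The 50 bases before the RefSeq start were identical in both genes. For Lyz2, GENCODE vM1 places the start further upstream, at 116719377 against 116719328 in RefSeq, so most of these 50 bases lie in its exon 1. Motifs were searched on both strands from 250 bases before to 50 after the start and set beside 32851 RefSeq promoters of the same length (GRCm38.p6). The ETS core GGAA had 4 matches in Lyz1 and 5 in Lyz2, against a median of 3, and 96.0% of promoters held at least 1. Both genes held it at 103 and 98 bases before the start. The C/EBP pattern TTGCNNAA had 1 match in Lyz1 and 0 in Lyz2, and 10.8% of promoters held it. The longer PU.1 form GAGGAAGT, which contains the ETS core (3.20% of promoters), the AP-1 pattern TGANTCA (7.81%) and the STAT6 pattern of TTC and GAA with any 4 bases between them (6.95%) had 0 matches in either gene. A match describes letters only.

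Values are on the log2 scale of the deposited table, so a difference of 1 is a doubling. Kdm1a averaged 11.18 ± 0.04 in shGFP control and 10.30 ± 0.05 in shKDM1A control cells (SD, n = 4), and 11.10 ± 0.03 and 10.32 ± 0.03 with IL4. Between the lines its level, converted from these log2 values, fell by 45.8% without IL4 and fell by 42.0% with IL4, with no overlap between libraries. The paper reports a larger decrease of Kdm1a expression in its knockdown RAW cells, measured by quantitative PCR. Totals were 17554721 to 27782568 tags per library. Of the macrophage markers fixed for the check, 8 of 9 listed had a value of at least 1, and Mertk, a receptor for dying cells, lay between -0.999 and -0.980. The summed macrophage markers ranged from 16.35 to 16.38 in shGFP control, 16.26 to 16.28 in shGFP IL4, 16.45 to 16.47 in shKDM1A control and 16.47 to 16.53 in shKDM1A IL4 libraries. Single markers moved both ways. Of the 8 tested, limma called 4 higher and 4 lower in shKDM1A cells without IL4 (19.7% and 18.4% of all genes). Itgam rose by 0.41 and Fcgr1 fell by 0.45. With IL4 in shGFP cells it called 2 higher and 3 lower (13.1% and 13.7%), with Adgre1 up by 1.24 and Cd14 down by 0.93. Of 10 markers of granulocytes, which also make lysozyme, S100a8 alone reached 1 (1.21 to 1.26), and 8 lay at 0 or below in all libraries. Their summed level stayed between 3.27 and 3.29. A gene listed at 0 adds 1 to this linear sum, so the constancy says little about granulocytes. None of the 4 Paneth cell, 3 B cell, 3 T cell, 3 fibroblast or 4 epithelial markers had a value above 0 in any library. In each library 8488 genes are listed at exactly 0 while others are negative, so a 0 need not be a higher level than a negative value. In bulk RNA, fewer cells expressing a gene and less RNA per cell cannot be told apart.

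Lyz1 had values of 13.44, 13.38, 13.41 and 13.42 in shGFP control replicates 1 to 4. With IL4 the shGFP cells had 12.77, 12.77, 12.78 and 12.84. The shKDM1A control libraries had 16.26, 16.22, 16.33 and 16.26, and the shKDM1A IL4 libraries 16.05, 15.95, 16.10 and 15.97. The 4 groups did not overlap in Lyz1, and all 8 shKDM1A libraries stood far above all 8 shGFP libraries.

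Lyz2 had values of 16.92, 16.87, 16.87 and 16.93 in shGFP control replicates 1 to 4. With IL4 the shGFP cells had 16.38, 16.38, 16.35 and 16.35. The shKDM1A control libraries had 17.17, 17.14, 17.16 and 17.18, and the shKDM1A IL4 libraries 17.11, 16.95, 17.09 and 17.02. The order of the groups was that of Lyz1, from shKDM1A control through shKDM1A IL4 and shGFP control down to shGFP IL4, and no groups overlapped. The 2 upper steps were narrow in Lyz2, and the lowest shKDM1A IL4 library (16.95) lay just above the highest shGFP control library (16.93).

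**Figure D1:**
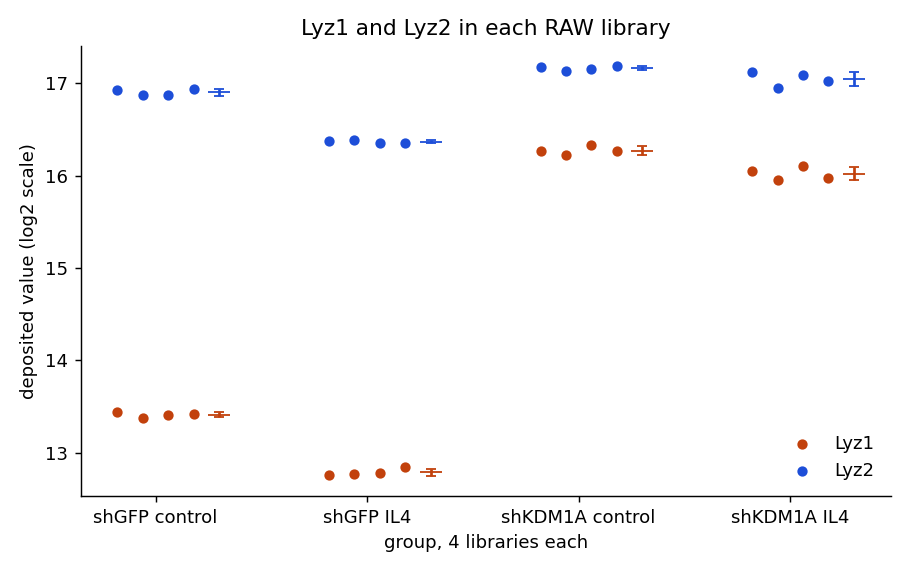
Deposited log2 values of Lyz1 (orange) and Lyz2 (blue) in each of the 16 RAW libraries by group, with the mean and SD (n = 4) to the right of the points; the axis starts above 0. Lyz1 lies between 12.77 and 13.44 in shGFP libraries and between 15.95 and 16.33 in shKDM1A libraries, while Lyz2 spans 16.35 to 17.18 in all.

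The levels were compared between the genes per kilobase of the lengths in the table, 1259 bases for Lyz1 and 1051 for Lyz2. On that log2 scale Lyz1 averaged 13.08 ± 0.03 and Lyz2 16.83 ± 0.03 in shGFP control cells (SD, n = 4). In shKDM1A control cells the averages were 15.94 ± 0.05 and 17.09 ± 0.02. Ranked per length from the highest of 12905 genes with sufficient values, Lyz2 stood at place 3 in each shGFP library and at place 2 or 3 in the shKDM1A libraries. Lyz1 stood at places 165 to 171 in shGFP control, 242 to 256 in shGFP IL4, 5 to 7 in shKDM1A control and 10 to 11 in shKDM1A IL4 libraries. By these values Lyz1 was a high transcript in shGFP cells and stood among the highest in shKDM1A cells. Without division by length Lyz1 was 8.19% of the pair in shGFP control cells, while 15.4% of 50-base Lyz2 windows also stood in Lyz1. How far reads of Lyz2 that match both genes add to Lyz1 in shGFP cells, or to its IL4 effect, was not tested.

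After conversion to a linear scale and division by length, Lyz1 made up 6.93% ± 0.11 of the summed pair in shGFP control and 6.54% ± 0.20 in shGFP IL4 cells (SD, n = 4). It made up 31.0% ± 0.7 in shKDM1A control and 29.1% ± 0.6 in shKDM1A IL4 cells. Lyz2 remained the larger part of the pair in each of the 16 libraries.

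**Figure D2:**
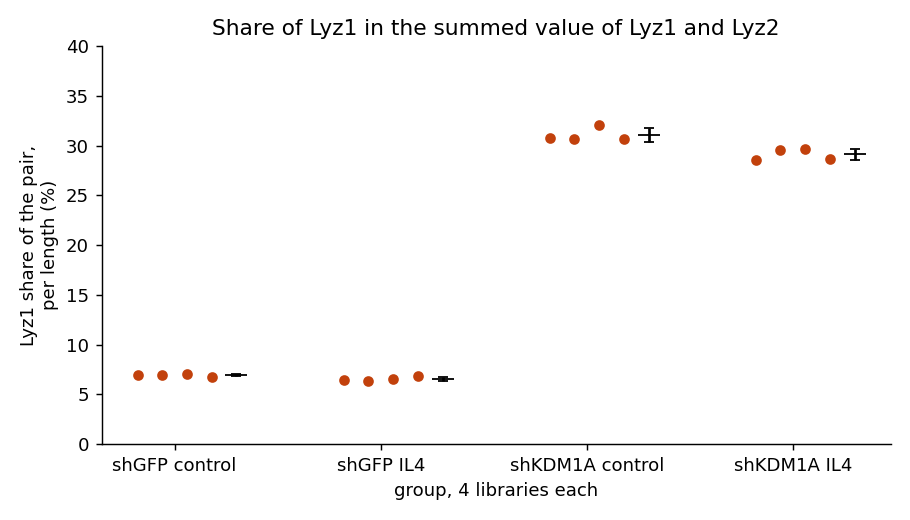
Share of Lyz1 in the summed linear value of Lyz1 and Lyz2, each divided by its length, in percent for each RAW library, with the mean and SD (n = 4) of each group at the right of its points. Shares lie between 6.38% and 7.07% in shGFP libraries and between 28.6% and 32.1% in shKDM1A libraries.

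Without division by length, the pair accounted for 0.668% ± 0.014 of the summed linear values of all genes in shGFP control and 1.10% ± 0.02 in shKDM1A control cells. Lyz1 rose by 0.331 percentage points of this sum between these groups and Lyz2 by 0.102 points. With IL4 the pair went from 0.464% ± 0.004 in shGFP to 0.982% ± 0.045 in shKDM1A cells, of which Lyz1 gave 0.288 points and Lyz2 0.230 points. On this linear scale too the difference of Lyz1 was larger than that of Lyz2, and the values of both genes were higher.

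Without IL4, Lyz1 was 7.25-fold higher in shKDM1A than in shGFP cells, a log2 difference of 2.86 (SE 0.03, limma adjusted p = 1.3e-18). Lyz2 was 1.20-fold higher, a log2 difference of 0.26 (SE 0.03, adjusted p = 2.8e-06). Of the 12905 genes tested, 19.7% were called higher and 18.4% lower at an adjusted p under 0.05, so a call alone is common in this comparison. In size, the difference of Lyz1 held place 1 of all genes tested and that of Lyz2 place 782. Only 3 genes rose by over 2 on the log2 scale, Lyz1 among them. With quantile normalization the difference of Lyz2 was 0.00 (adjusted p = 1). Lyz2 was at place 3 of all genes in each of these 8 libraries, and that method gives genes of 1 rank 1 value.

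With IL4, Lyz1 was 9.39-fold higher in shKDM1A than in shGFP cells, a log2 difference of 3.23 (SE 0.03, limma adjusted p = 3.9e-19). Lyz2 was 1.60-fold higher, a log2 difference of 0.68 (SE 0.03, adjusted p = 2.4e-11). With quantile normalization the difference of Lyz2 was 0.28 (adjusted p = 2.6e-07). In this comparison 20.9% of genes were called higher and 19.8% lower. The difference of Lyz1 again held place 1, and that of Lyz2 place 111. The libraries of this comparison are not those of the comparison without IL4.

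**Figure D3:**
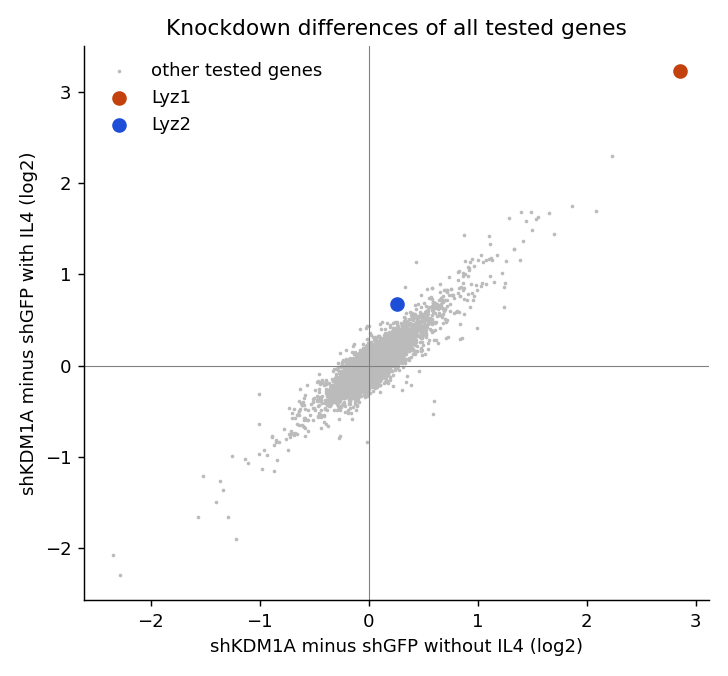
Log2 difference between shKDM1A and shGFP cells without IL4 (x axis) and with IL4 (y axis) for each of the 12905 genes tested, with Lyz1 in orange and Lyz2 in blue; the axes use different libraries. Lyz1 lies at 2.86 and 3.23, beyond every other gene, and Lyz2 at 0.26 and 0.68, near the edge of the cloud.

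IL4 lowered both genes in shGFP cells. Lyz1 fell by 35.1%, a log2 difference of -0.62 (SE 0.03, limma adjusted p = 3.5e-10), and Lyz2 fell by 30.9%, a log2 difference of -0.53 (SE 0.03, adjusted p = 7.4e-10). With quantile normalization the value of Lyz2 was -0.31 (adjusted p = 1.0e-07). In this comparison 13.1% of genes were called higher and 13.7% lower. From the largest decrease, Lyz1 held place 36 and Lyz2 place 63 of the genes tested.

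IL4 lowered both genes by less in shKDM1A cells. Lyz1 fell by 15.9%, a log2 difference of -0.25 (SE 0.03, limma adjusted p = 2.3e-05), and Lyz2 fell by 7.73%, a log2 difference of -0.12 (SE 0.03, adjusted p = 0.0078). The shKDM1A IL4 libraries fell into pairs, with Lyz2 at 17.11 and 17.09 in replicates 1 and 3 and 16.95 and 17.02 in replicates 2 and 4. Over all genes with sufficient values the median absolute difference was 0.044 and 0.039 within these pairs and 0.054 to 0.056 across them. Here 13.6% of genes were called higher and 13.5% lower. With quantile normalization these differences were -0.04 (adjusted p = 0.42) for Lyz1 and -0.03 (adjusted p = 0.36) for Lyz2, and neither passed the threshold. Both genes stood at nearly the same rank in all 8 libraries, Lyz1 at place 7 or 8 and Lyz2 at place 3 or 4 of all genes.

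The difference in the IL4 effect between the lines was tested as an interaction. It was 0.37 for Lyz1 (SE 0.05, limma adjusted p = 0.00019) and 0.42 for Lyz2 (SE 0.04, adjusted p = 2.9e-05), so the decrease with IL4 was smaller in shKDM1A cells for both. Few genes passed this test, with 3.56% called higher and 2.57% lower. From the highest value, Lyz2 held place 9 and Lyz1 place 12. With quantile normalization the values were 0.58 for Lyz1 (adjusted p = 6.1e-07) and 0.28 for Lyz2 (adjusted p = 0.00031), so the order of the genes depended on the scaling.

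**Figure D4:**
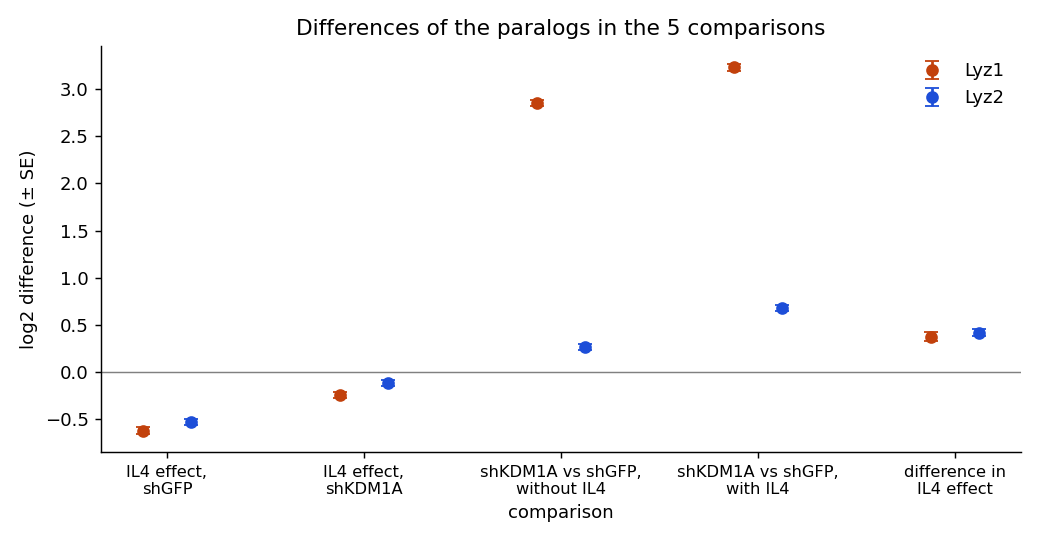
Log2 differences of Lyz1 (orange) and Lyz2 (blue) in the 4 comparisons of groups and the difference in IL4 effect, with the SE from limma as bars. The genes lie close together for IL4, at -0.62 and -0.53 in shGFP cells, and far apart for the knockdown, at 2.86 and 0.26 without IL4.

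Since both genes were measured in the same library, the gap between them was also compared. Lyz2 minus Lyz1 averaged 3.49 ± 0.02 in shGFP control, 3.58 ± 0.05 in shGFP IL4, 0.89 ± 0.05 in shKDM1A control and 1.02 ± 0.04 in shKDM1A IL4 cells (log2, SD, n = 4). The gap ranged from 3.46 to 3.62 in shGFP libraries and from 0.82 to 1.06 in shKDM1A libraries. With the knockdown the gap narrowed, changing by -2.60 (SE 0.03) without IL4 and by -2.55 (SE 0.03) with IL4. Each gave p = 0.0286 in a two-sided exact permutation test, the smallest that 4 against 4 libraries allow, and 0.0381 adjusted over 4 comparisons.

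IL4 changed the gap far less than the knockdown. In shKDM1A cells it widened by 0.13 (SE 0.03, exact permutation p = 0.0286, adjusted 0.0381). In shGFP cells it was wider by 0.09 (SE 0.03), but the groups overlapped and the exact permutation test gave p = 0.0571. With quantile normalization the IL4 values were 0.00 (adjusted p = 1, exact permutation test) in shKDM1A and 0.31 (adjusted p = 0.0381) in shGFP cells, so both calls on IL4 depended on the scaling. The change of the gap with IL4 was 0.04 (SE 0.04) larger in shKDM1A than in shGFP cells, which was not tested.

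The genes around the pair showed no knockdown difference of the size of that of Lyz1. Within 500 kb of either gene, 16 other genes are listed and 10 had sufficient values. Between shKDM1A and shGFP cells without IL4 their log2 differences lay between -0.05 and 0.29, with 2 called higher and 0 lower by limma, against 19.7% and 18.4% of all genes. With IL4 they lay between -0.04 and 0.36, with 3 called higher and 0 lower, against 20.9% and 19.8%. The counts of higher calls were near these shares. The highest was Mdm2, the ubiquitin ligase for p53, whose start lies 428.5 kb from that of Lyz2, with 0.29 (adjusted p = 2.7e-07) and 0.36 (adjusted p = 2.0e-08). The gene 4933412E12Rik, 331.7 kb away on the other side, had 0.20 (adjusted p = 5.3e-05) and 0.16 (adjusted p = 0.00065). The third was Cpsf6, an mRNA cleavage factor and the nearest tested gene on the side of Lyz1 at 94.7 kb, with 0.04 (adjusted p = 0.095) and 0.05 (adjusted p = 0.039). Yeats4, a reader of acetylated histones and the nearest tested gene on the side of Lyz2 at 57.8 kb, had -0.02 (adjusted p = 0.62) and 0.02 (adjusted p = 0.73). The gene 9530003J23Rik lies nearer on that side, at 43.6 kb, but its values (-1.55 to -1.53) were too low to be tested.

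The remaining neighbours were not called for the knockdown. They were Rab3ip, a guanine nucleotide exchange factor, the chaperonin subunit Cct2, the receptor adaptor Frs2, the carboxypeptidase Cpm, Slc35e3 and the nuclear pore subunit Nup107. In response to IL4 in shGFP cells, where 13.1% of all genes were called higher and 13.7% lower, 1 neighbour was called higher, Cct2 at 0.08 (limma adjusted p = 0.0083). Frs2 at -0.15 (adjusted p = 0.048), Mdm2 at -0.14 (adjusted p = 0.00099) and Nup107 at -0.09 (adjusted p = 0.011) were called lower. In shKDM1A cells (13.6% and 13.5% of all genes) Cct2 was higher at 0.07 (adjusted p = 0.019) and Nup107 lower at -0.11 (adjusted p = 0.0026).

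**Figure D5:**
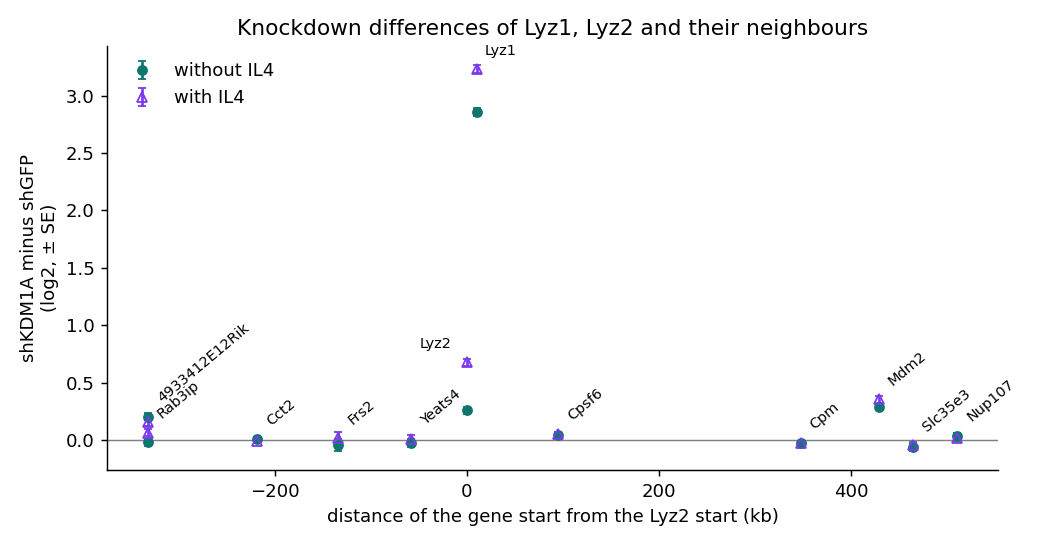
Log2 difference between shKDM1A and shGFP cells, with the SE as bars, for Lyz1, Lyz2 and the 10 tested neighbours, by the distance of each start from that of Lyz2 in kb (positive towards Lyz1); filled circles are cells without IL4 and open triangles cells with IL4. The neighbours lie between -0.05 and 0.36, against 2.86 and 3.23 for Lyz1.

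No other gene on the list of the lysozyme family was expressed at a level where a change could be read. Of the 8 other family members on the list, Lyzl1, Lyzl6, Lalba, Spaca3, Lyg1 and Lyg2 were listed at 0 in every library, and Spaca5 lay at -2.27 to -2.26. As above, a 0 need not be a higher level than a negative value. Lyzl4 lay between 1.20 and 1.24, the only one tested, and was not called in any comparison. Lalba, the milk protein alpha-lactalbumin, and the sperm proteins Spaca3 and Spaca5 are relatives with other functions.

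Of the secreted and granule antimicrobial proteins, 7 of 21 listed genes had sufficient values. Without IL4, 1 was higher and 4 lower in shKDM1A cells by limma, with a median log2 difference of -0.07 against 0.00 over all genes, and with IL4 2 were higher and 3 lower (median -0.02). Of all genes, 19.7% were higher and 18.4% lower without IL4, and 20.9% and 19.8% with IL4. Mpeg1, a pore-forming protein of phagosomes, fell by 0.35 on the log2 scale without IL4 (adjusted p = 9.1e-08) and by 0.42 with IL4 (adjusted p = 9.3e-09). Rnase4, a secreted ribonuclease, fell by 0.60 in both (adjusted p = 1.7e-09 and 1.6e-09), and Ang, which lies at the same locus and may share reads with it, fell by 0.24 (adjusted p = 0.00011) and 0.10 (adjusted p = 0.042). Lgals3, a secreted galectin, rose by 0.22 (adjusted p = 2.3e-07) and 0.28 (adjusted p = 9.9e-09). In response to IL4, 0 were higher and 2 lower in shGFP cells (median -0.04), against 13.1% and 13.7% of all genes, and 0 higher and 1 lower in shKDM1A cells (median 0.00), against 13.6% and 13.5%. Mpeg1 fell with IL4 by 0.71 in shGFP (adjusted p = 2.2e-11) and 0.78 in shKDM1A cells (adjusted p = 9.6e-12), while Rnase4, Ang and Lgals3, with IL4 effects between -0.08 and 0.06, were not called in either line.

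Of the genes for bactericidal oxidants and the phagosome, 9 of 10 listed were tested. In shKDM1A cells 2 were higher and 2 lower without IL4 by limma (median -0.02), and 4 were higher and 2 lower with IL4 (median 0.07), against 19.7% and 18.4% of all genes without IL4 and 20.9% and 19.8% with IL4. Slc11a1, a metal transporter of the phagosome, rose by 0.36 in both (adjusted p = 1.6e-09 and 1.7e-09), and Hvcn1, a proton channel, fell by 0.18 with IL4 (adjusted p = 0.0011), its value without IL4 being -0.02 (adjusted p = 0.67). Cybb, the catalytic subunit of the NADPH oxidase, fell by 0.16 without IL4 (adjusted p = 0.0019) and by 0.11 with IL4 (adjusted p = 0.017). The oxidase regulator Rac2 had -0.06 without IL4 (adjusted p = 0.081) and rose by 0.07 with IL4 (adjusted p = 0.024). In response to IL4, 3 were higher and 5 lower in shGFP cells (median -0.12; 13.1% and 13.7% of all genes), and 2 higher and 3 lower in shKDM1A cells (median 0.01; 13.6% and 13.5%). Cybb fell with IL4 by 0.62 in shGFP (adjusted p = 8.0e-10) and 0.58 in shKDM1A cells (adjusted p = 2.4e-09). Rac2 fell by 0.22 (adjusted p = 3.9e-06) and 0.09 (adjusted p = 0.013). Hvcn1 rose with IL4 by 0.23 in shGFP cells (adjusted p = 0.0002) and had 0.07 in shKDM1A cells (adjusted p = 0.17), while Slc11a1 fell by 0.14 in both (adjusted p = 0.00015 and 0.00013).

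Of the genes that sense peptidoglycan and other bacterial products, 9 of 12 were tested. In shKDM1A cells 1 was higher and 5 lower without IL4 by limma (median -0.08), and 2 were higher and 2 lower with IL4 (median -0.03). The shares of all genes were 19.7% and 18.4% without IL4 and 20.9% and 19.8% with IL4. Slc15a3, a lysosomal transporter of peptidoglycan fragments, fell by 0.56 (adjusted p = 6.9e-10) and 0.49 (adjusted p = 4.0e-09), and the receptor Tlr2 fell by 0.31 (adjusted p = 8.3e-09) and 0.15 (adjusted p = 2.7e-05). Ripk2, the kinase downstream of the NOD receptors, rose by 0.27 in both (adjusted p = 8.9e-05 and 7.7e-05). Cd14, a coreceptor for lipopolysaccharide, fell by 0.08 without IL4 (adjusted p = 0.011) and rose by 0.40 with IL4 (adjusted p = 7.3e-10). For the IL4 effect, 3 were higher and 5 lower in shGFP cells (median -0.09; 13.1% and 13.7% of all genes), and 4 higher and 2 lower in shKDM1A cells (median 0.07; 13.6% and 13.5%). Cd14 fell with IL4 by 0.93 in shGFP (adjusted p = 3.3e-14) and 0.45 in shKDM1A cells (adjusted p = 3.0e-10), and its difference in IL4 effect was 0.48 (adjusted p = 2.8e-07). Ripk2 rose with IL4 by 0.31 in shGFP (adjusted p = 2.7e-05) and 0.32 in shKDM1A cells (adjusted p = 2.6e-05), and Slc15a3 rose by 0.14 (adjusted p = 0.0033) and 0.22 (adjusted p = 8.2e-05). Tlr2 fell by 0.09 in shGFP cells (adjusted p = 0.0068) and rose by 0.07 in shKDM1A cells (adjusted p = 0.033).

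Of the transcription factors known to act on lysozyme genes in myeloid cells, 9 of 12 were tested. In shKDM1A cells 3 were higher and 2 lower without IL4 by limma (median 0.04), and 4 were higher and 3 lower with IL4 (median 0.03), where 19.7% and 18.4% of all genes were called without IL4 and 20.9% and 19.8% with IL4. Cebpa, which directs myeloid differentiation, rose by 0.43 (adjusted p = 1.3e-09) and 0.53 (adjusted p = 8.7e-11). Spi1, which encodes PU.1, rose by 0.11 (adjusted p = 0.0096) and 0.25 (adjusted p = 5.5e-06). Cebpb had 0.08 without IL4 (adjusted p = 0.22) and rose by 0.27 with IL4 (adjusted p = 0.000425), and Cebpd fell by 0.28 (adjusted p = 0.0021) and 0.17 (adjusted p = 0.046). For the IL4 effect, 2 were higher and 2 lower in shGFP cells (median -0.06; 13.1% and 13.7% of all genes), and 1 higher and 1 lower in shKDM1A cells (median 0.04; 13.6% and 13.5%). Cebpa rose with IL4 by 0.19 in shGFP (adjusted p = 4.1e-05) and 0.29 in shKDM1A cells (adjusted p = 2.9e-07), and Cebpd fell by 0.21 in shGFP cells (adjusted p = 0.021) and had -0.09 in shKDM1A cells (adjusted p = 0.32). Cebpb and Spi1, with IL4 effects between -0.08 and 0.11, were not called in either line.

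The genes whose values were most like those of each paralog over the 16 libraries were ranked by Pearson's r, as a description of libraries that share groups and scaling. For Lyz1 they were Fth1, the ferritin heavy chain (r = 0.998), Usp18, a protease that removes the interferon-induced modifier ISG15 (0.997), the lysosomal protease Ctsl (0.997), the secreted Lgals3bp (0.997) and the elongation factor Eef1a1 (0.996). For Lyz2 they were Slfn2 (0.986), the SLAM family receptor Ly9 (0.983), the glycosylation subunit Rpn1 (0.980), the chaperone Calr (0.977) and the C-type lectin Clec4d (0.977). No gene stood in both lists of 5. The paralogs had r = 0.856 with each other, which put Lyz2 at place 908 for Lyz1 and Lyz1 at place 409 for Lyz2, of 12904 other genes. Usp18 averaged 9.57 in shGFP control and 10.86 in shKDM1A control cells, and Slfn2 10.88 and 11.18.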

How the data were processed

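RNA-seq reads of 16 RAW libraries were counted by the authors with HOMER over RefSeq exons of the mm9 build, on both strands, condensed to 1 row per gene and normalized for comparison with DESeq2. The deposited values are on a log2 scale and moderated for low expression, and the transformation is not named. They are not counts, so no count model was fitted here. Columns of the authors' own comparisons (12 in the BMDM table and 9 in the RAW table) hold their fold changes on the log2 scale with raw and adjusted p-values and were not used.

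Groups were compared with limma 3.58.1 in R 4.3.3, 4 groups in 1 model, on the 12905 genes that reached 1 in 4 or more libraries. P-values were adjusted within each comparison by Benjamini-Hochberg, with a threshold of 0.05. The limma step was tested on simulated data. The gap between the paralogs was tested by exact permutation (scipy 1.17.1). Genes named besides the pair were Kdm1a, tested genes within 500 kb, the 5 most correlated with each, and up to 4 called genes per list with the largest change. The members and lists were chosen with earlier results of these data known. Other assays were not analysed here.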

Additional observations from a re-analysis of the deposited data

Results flagged for a closer look

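The IL4 effect differed between shKDM1A and shGFP cells by 0.37 on the log2 scale for Lyz1 and by 0.42 for Lyz2, by the interaction test of limma. The gap between the genes in shKDM1A control replicate 3, 0.82, stood apart from the other 3 libraries of its group, which lay between 0.91 and 0.92. The Lyz1 value of that library, 16.33, was the highest of its group. Since 12 groups of 4 values were looked at in this way, 1 may stand apart by chance.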

How the results depend on the processing

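Direction and call of Lyz1 and Lyz2 were the same in all comparisons without a filter, with a minimum value of 5, with median centring and without each library, and in the 4 comparisons of groups with only the groups compared. With quantile normalization 3 values were no longer called by limma: the IL4 effect in shKDM1A cells was -0.0368 for Lyz1 and -0.0348 for Lyz2, and the knockdown without IL4 was 0.00 for Lyz2. It also moved Lyz2 to -0.31 for IL4 in shGFP cells and to 0.28 for the knockdown with IL4, and the difference in IL4 effect to 0.58 for Lyz1 and 0.28 for Lyz2, all still called. For the gap between the genes, quantile normalization gave 0.31 for IL4 in shGFP cells, now called, and 0.0020 in shKDM1A cells, no longer called. Without a filter the difference in IL4 effect was called in 431 genes, against 791, with 25094 genes tested. Leaving out each library gave gaps of -2.61 to -2.57 for the knockdown without IL4, -2.57 to -2.54 with IL4 and 0.11 to 0.15 for IL4 in shKDM1A cells, where 3 against 4 libraries cannot reach p under 0.0571 in the exact test.

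Replicate numbers did not pair the libraries: of 24 same-numbered pairs 3 had a correlation of deviations over 0.1 (median 0.045). With the replicate number as a block, limma called 3430, 3459, 4882, 5212 and 732 genes against 3466, 3497, 4927, 5255 and 791, and each call of Lyz1 and Lyz2 was kept. For the gap, the block left changes of 0.13, -2.60 and -2.55 without a call, since 4 pairs cannot reach an exact p under 0.125.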

Other observations

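Besides Lyz1, genes with a knockdown difference beyond 2 on the log2 scale in either comparison were Irf7, Pkd1l2, Tmem176b and Sorl1, named after their values were seen. Irf7, an interferon regulatory factor, had 2.23 without IL4 and 2.30 with IL4, and Pkd1l2 had 2.09 and 1.70. Tmem176b had -2.28 and -2.30, and Sorl1, a sorting receptor, -2.35 and -2.08.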
